A study of Mus musculus with 10 samples.

Results

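The hormone genes of the pancreatic islet were followed in whole pancreas of DKO and Control mice. The group comprised Ins1, Ins2, Gcg, Sst, Ppy, Pyy, Iapp and Ghrl, and 7 of the 8 were measured among 19938 genes tested. They were taken as a family of genes by symbol and not by a rule on their values. Earlier results of these data were known when the family was chosen. Ins1 was not analysed here, because no transcript cluster (the set of probes that stands for a gene on the array) was assigned to it. DKO samples (n = 5) carried the genotype PDX1Cre,Mst1-/-,Mst2L/L, that is, a null allele of the Hippo kinase gene Mst1 in every cell of the body and a floxed allele of its relative Mst2 that is lost where Cre recombinase acts under the Pdx1 promoter. The 5 Control samples bore no other description than Control, and both groups were of mixed strain background. Ages and sexes were not given, and no label stated that the samples of a group were separate animals. The p-values below therefore rest on sample-to-sample spread alone, part of which may be technical.

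Islets are small clusters of endocrine cells scattered in the exocrine pancreas. Beta cells make insulin, which in the mouse comes from the genes Ins1 and Ins2, and co-secrete amylin, the product of Iapp. Alpha cells make glucagon (Gcg), delta cells somatostatin (Sst), PP cells pancreatic polypeptide (Ppy) and the rare epsilon cells ghrelin (Ghrl), while peptide YY (Pyy) is found in several islet cell types and in the gut. All are made as longer precursors that are cut and stored in dense-core granules. Pdx1 is active in the progenitors of acinar, duct and endocrine cells alike and stays on in beta cells, so Cre driven by its promoter can act in islet cells as well as in the exocrine pancreas.

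RNA was read on Affymetrix Mouse Gene 1.0 ST arrays, 1 per sample, as log2 intensities, where a difference of 1 is a factor of 2. Array medians lay between 7.12 and 7.15 and maxima between 13.77 and 13.94, and the number of arrays limits the precision. The deleted kinase genes gave no check of the labels, since Stk4, which encodes MST1, was dim in both groups (5.07 to 5.21 in DKO, 5.01 to 5.23 in Control) and Stk3 was not analysed here. The tissue carried strong acinar signal, with a mean over 20 acinar marker genes of 12.09 to 12.42 in DKO and 12.45 to 12.54 in Control. DKO replicate 1 stood apart by its hepatocyte transcripts (10.94 on average over 15 genes, with 6.68 to 7.45 in DKO replicates 2 to 5 and 6.76 to 7.48 in Control). The sexes were mixed and not balanced, since Xist, which coats the silenced X chromosome of female cells, was at 12.11 to 12.29 in DKO replicates 1 and 4 and in Control replicates 2, 3 and 4, and at 5.13 to 5.75 in the other arrays, where the Y-linked genes were high.

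The sequence upstream of 3 of the hormone genes is shown because Iapp had the smallest p of the group and because Gcg and Sst, made in different islet cells, were both high in Control replicates 2 and 3. The 250 bases before the start of transcription were taken from RefSeq on GRCm38.p6, which held entries for 7 of the 8 genes. Capitals mark TAAT on either strand (ATTA on the other), the core read by homeodomain factors of islet cells such as Pdx1, Nkx6-1 and Isl1, and TGACGTCA, the palindromic cyclic AMP response element. Iapp lies at chr6:142298175-142298424 on the plus strand, Gcg at chr2:62483654-62483903 on the minus strand and Sst at chr16:23890845-23891094 on the minus strand.
Iapp: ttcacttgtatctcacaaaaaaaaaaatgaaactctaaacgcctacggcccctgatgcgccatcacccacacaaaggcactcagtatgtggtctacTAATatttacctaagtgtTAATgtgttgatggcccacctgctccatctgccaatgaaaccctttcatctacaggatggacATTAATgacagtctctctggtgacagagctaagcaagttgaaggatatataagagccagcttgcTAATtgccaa
Gcg: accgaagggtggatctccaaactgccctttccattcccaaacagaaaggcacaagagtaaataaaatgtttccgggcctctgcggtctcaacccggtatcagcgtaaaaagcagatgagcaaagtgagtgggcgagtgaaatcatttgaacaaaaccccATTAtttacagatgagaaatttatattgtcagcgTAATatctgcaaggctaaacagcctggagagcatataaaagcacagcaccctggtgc
Sst: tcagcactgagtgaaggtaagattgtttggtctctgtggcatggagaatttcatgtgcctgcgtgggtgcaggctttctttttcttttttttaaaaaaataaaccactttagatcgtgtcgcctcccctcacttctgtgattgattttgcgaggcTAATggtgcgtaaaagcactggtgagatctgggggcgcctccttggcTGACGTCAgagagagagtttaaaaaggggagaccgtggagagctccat
The Iapp window held 5 TAAT matches, of which 1 pair overlaps in the run ATTAAT, the Gcg window 2 and the Sst window 1. At least 1 such match stood in 54.9% of 32851 promoter windows of the same length. The Sst window alone of the 3 held TGACGTCA, with its first base 48 bases before the start, a motif found in 1.55% of the windows. These matches describe the letters and do not show binding.

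The central comparison asked whether islet hormone transcripts differed between DKO and Control pancreas. All 7 measured hormones had a lower mean in DKO, with log2 differences (DKO minus Control) from -0.32 for Iapp to -0.08 for Ins2. None passed an adjusted p of 0.05 in limma, where Benjamini-Hochberg adjustment ran over all genes tested, whereas 2.44% of all genes passed in either direction and 0.366% as lower in DKO. At an unadjusted p of 0.05 1 of the 7, Iapp, passed, against 14.8% of all genes in either direction and 5.66% as lower in DKO. In whole pancreas, fewer islet cells and less hormone RNA per cell cannot be told apart. The median difference of the hormones was -0.14, and that of all genes -0.006, of which 52.4% had a negative sign. With the Xist level as a covariate, Iapp differed by -0.28 (limma adjusted p = 0.130) and again no hormone passed. In no hormone did every DKO array lie below every Control array, an arrangement seen in 1.28% of all genes.

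**Figure D1:**
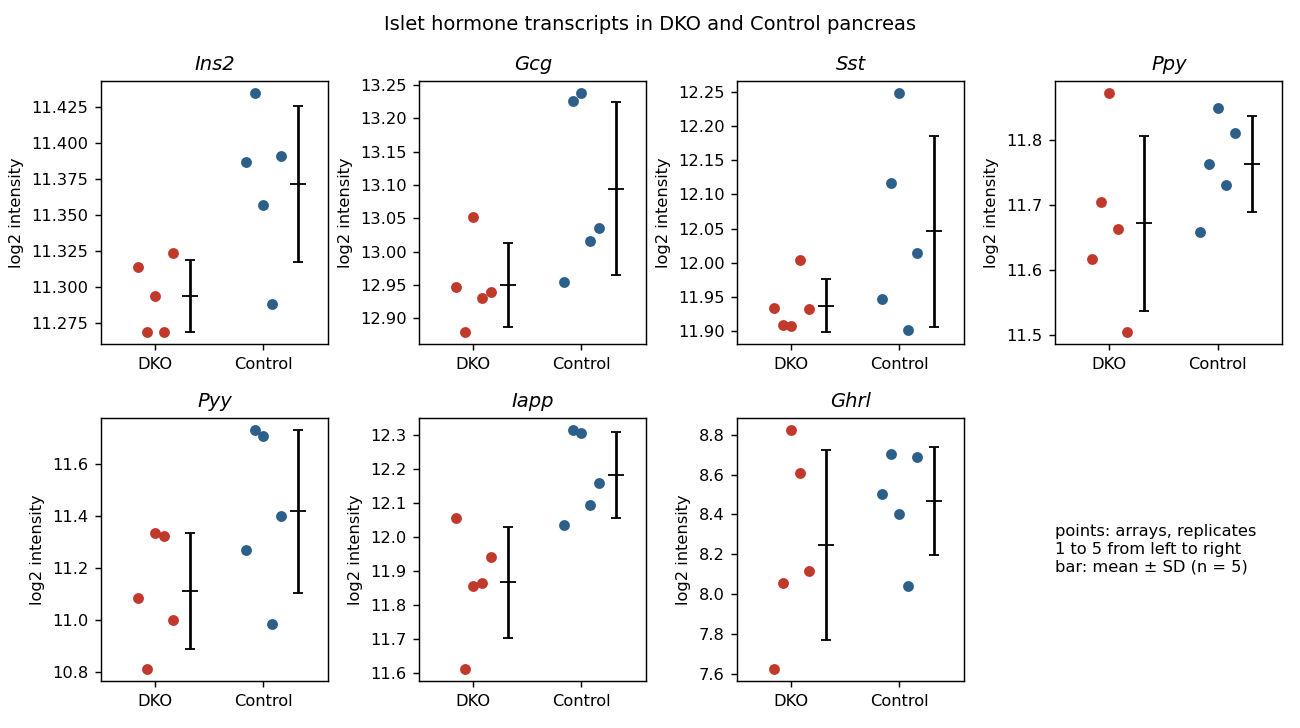
Log2 intensity of 7 islet hormone genes in 5 DKO (red) and 5 Control (blue) pancreas arrays, with mean ± SD at the right of each group; each panel has its own vertical scale. In Iapp 4 DKO arrays lie below the whole Control range, and in Gcg, Sst, Pyy and Iapp Control replicates 2 and 3 stand highest.

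Among the beta cell products, Iapp encodes amylin, a peptide that slows gastric emptying and lowers food intake. It measured 12.06, 11.61, 11.86, 11.87 and 11.94 in DKO replicates 1 to 5, against 12.04, 12.31, 12.31, 12.09 and 12.16 in Control replicates 1 to 5. The groups overlapped by DKO replicate 1 alone, which lay just above Control replicate 1, while the other 4 DKO arrays lay below the Control range. The means were 11.87 ± 0.16 in DKO and 12.18 ± 0.13 in Control (SD, n = 5 each), a log2 difference of -0.32 ± 0.09 (SE), with a 95% interval of -0.51 to -0.12 and a limma adjusted p of 0.0971. By its unadjusted p of 0.00394 Iapp ranked 809 among the 19938 genes in this limma fit.

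Ins2, the insulin gene that mice share with other mammals, measured 11.31, 11.27, 11.29, 11.27 and 11.32 in DKO replicates 1 to 5, against 11.39, 11.43, 11.36, 11.29 and 11.39 in Control replicates 1 to 5. Control replicate 4 lay among the DKO arrays, and the other 4 Control arrays lay above all of them. The log2 difference was -0.08 ± 0.04 (SE; 95% interval -0.17 to 0.02, limma adjusted p = 0.435). Ins2 spanned 0.17 over the 10 arrays, the narrowest span of the 7 hormones, where the median span was 0.41 over all genes and 0.32 over the brightest 5% of genes. The clusters of Gcg, Iapp, Sst and Ppy had higher log2 levels and spanned 0.36, 0.70, 0.35 and 0.37. Narrow spans near the top of the scale may be compressed, and levels of different clusters are not on a common scale. How far compression applied to Ins2 or to these other clusters was not tested. Probes for Ins2 may also read the closely related Ins1 transcript, which was not tested.

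Because amylin and insulin come from the same cells, Iapp was also set against Ins2 within each array. The difference between the signals has no meaning as a ratio of transcripts, and only its shift between groups was used. It was 0.74, 0.34, 0.56, 0.60 and 0.62 in DKO replicates 1 to 5, against 0.65, 0.88, 0.95, 0.80 and 0.77 in Control replicates 1 to 5. In 4 of 5 DKO arrays it was lower than in any Control array, DKO replicate 1 being the exception. The shift was -0.24 (DKO mean 0.57 ± 0.14, Control mean 0.81 ± 0.11, SD, n = 5 each; exact two-sided permutation p = 0.0159, adjusted p = 0.0635 over 4 such differences), where the smallest p that 5 arrays against 5 allow is 0.00794. Ins2 itself spanned 0.17 over the 10 arrays, against 0.70 for Iapp. It differed by -0.08 between the groups, against -0.32 for Iapp. The shift therefore mostly carries the difference of Iapp itself, and a change of Iapp relative to beta cell content was not tested. The other 3 hormones set against Ins2 shifted by -0.07 (Gcg), -0.03 (Sst) and -0.01 (Ppy), with adjusted exact permutation p-values of 0.635, 0.865 and 0.865.

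**Figure D2:**
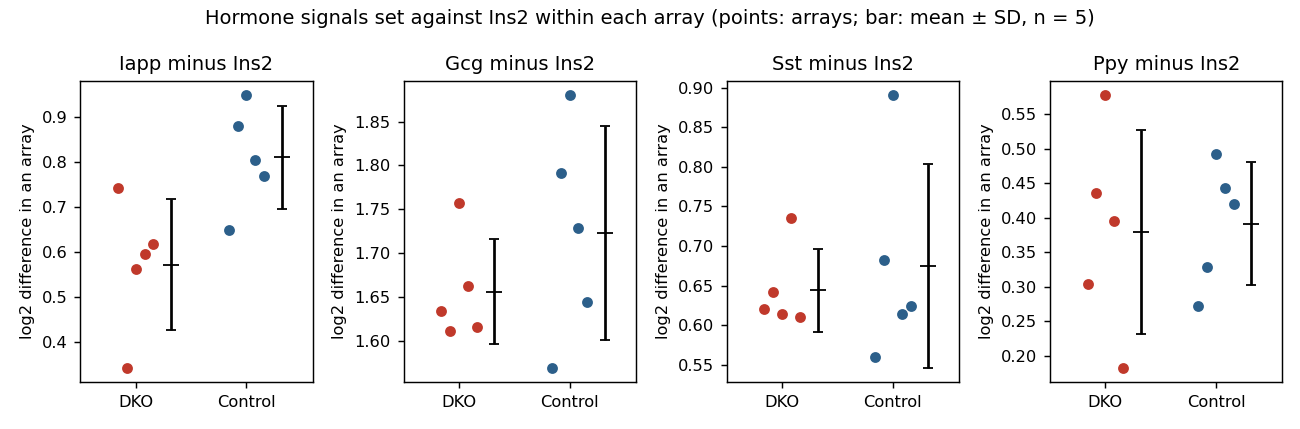
Log2 signal of Iapp, Gcg, Sst and Ppy minus that of Ins2 in the same array, for 5 DKO (red) and 5 Control (blue) arrays with mean ± SD; each panel has its own vertical scale. The DKO values of Iapp minus Ins2 run from 0.34 to 0.74 and the Control values from 0.65 to 0.95, and the groups overlap widely in the other 3 panels.

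Gcg encodes the precursor of glucagon, which raises blood glucose through the liver. It was the brightest hormone cluster, at the 99.9 percentile of all genes, and measured 12.95, 12.88, 13.05, 12.93 and 12.94 in DKO replicates 1 to 5, against 12.96, 13.23, 13.24, 13.02 and 13.03 in Control replicates 1 to 5. Only DKO replicate 3 reached into the Control range, and Control replicates 2 and 3 stood well above all other arrays. The log2 difference was -0.14 ± 0.07 (SE), with a 95% interval of -0.29 to 0.00066 (limma adjusted p = 0.340).

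Sst encodes somatostatin, which restrains the release of insulin and glucagon. It measured 11.93, 11.91, 11.91, 12.00 and 11.93 in DKO replicates 1 to 5, against 11.95, 12.12, 12.25, 11.90 and 12.02 in Control replicates 1 to 5. The DKO arrays were tightly grouped (SD 0.039, against 0.14 in Control) and lay inside the Control range, above its lowest array. The log2 difference was -0.11 ± 0.07 (SE; 95% interval -0.25 to 0.04, limma adjusted p = 0.480).

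Ppy and Pyy encode related peptides of the neuropeptide Y family, which act on appetite and gut function. Ppy measured 11.62, 11.70, 11.87, 11.66 and 11.50 in DKO replicates 1 to 5, against 11.66, 11.76, 11.85, 11.73 and 11.81 in Control replicates 1 to 5. The highest and the lowest of the 10 arrays were both DKO arrays, replicates 3 and 5, and the log2 difference was -0.09 ± 0.07 (SE; 95% interval -0.24 to 0.06, limma adjusted p = 0.570). Pyy measured 11.08, 10.81, 11.33, 11.32 and 11.001 in DKO replicates 1 to 5, against 11.27, 11.73, 11.71, 10.98 and 11.40 in Control replicates 1 to 5. Its groups overlapped over much of their range, with Control replicate 4 near the low end, and the log2 difference was -0.31 ± 0.15 (SE; 95% interval -0.64 to 0.03, limma adjusted p = 0.379). The point estimate of Pyy was close to that of Iapp, but its SE was larger.

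Ghrl encodes ghrelin, a hormone that stimulates appetite and that epsilon cells of the islet and cells of the stomach make. It was the dimmest of the group, at the 64.1 percentile, and the most variable, spanning 1.2 over the 10 arrays. It measured 7.62, 8.06, 8.83, 8.61 and 8.12 in DKO replicates 1 to 5, against 8.50, 8.70, 8.40, 8.04 and 8.69 in Control replicates 1 to 5. The lowest and the highest array, DKO replicates 1 and 3, came from the same group. The log2 difference was -0.22 ± 0.21 (SE), and its 95% interval of -0.69 to 0.25 allows changes in either direction (limma adjusted p = 0.654). Without DKO replicate 1, the array with hepatocyte transcripts, the difference was -0.07, and without DKO replicate 3 it was -0.37. Mboat4, the enzyme that acylates ghrelin, differed by -0.08 (limma adjusted p = 0.662).

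The next question was whether hormones of different islet cells rose and fell together from array to array. Control replicate 2 ranked among the highest 2 of 10 arrays for 6 of the 7 hormones, and Control replicate 3 did so for 5. DKO replicate 2 was among the lowest 2 for 4 hormones and the lowest array for Gcg, Pyy and Iapp. Control replicate 4 was among the lowest 2 for 3 hormones, so low values were not limited to DKO.

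**Figure D3:**
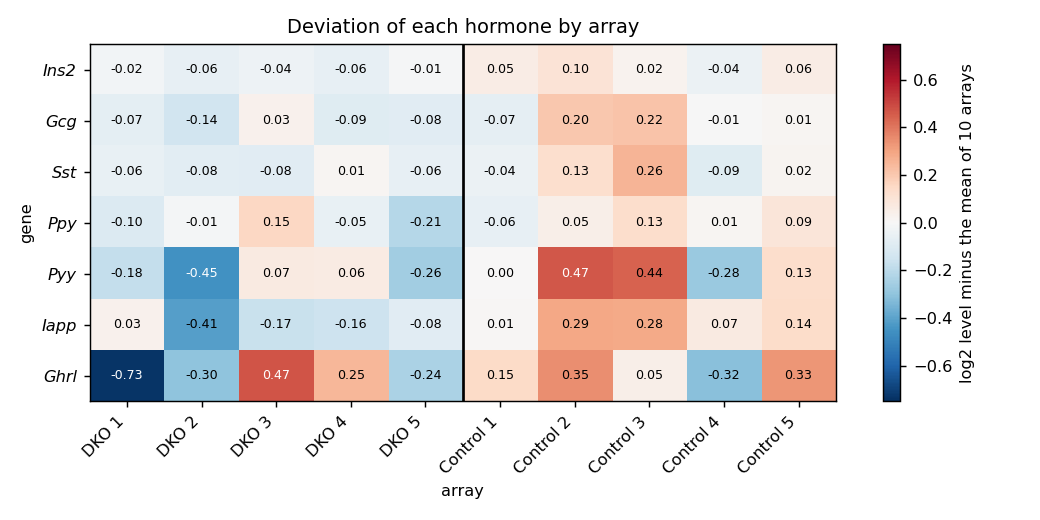
Log2 level of each hormone minus its own mean over the 10 arrays, with DKO arrays left of the line and Control arrays right of it. Control replicates 2 and 3 are above the mean in every row, while DKO replicate 2 is below it in every row and DKO replicate 3 is above it for Gcg, Ppy, Pyy and Ghrl and below it for Ins2, Sst and Iapp.

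Over the 10 arrays all 21 pairs of hormones correlated positively, with a median Pearson r of 0.63. In 6 pairs the permutation p passed 0.05 after adjustment over the 21. The highest were Gcg with Pyy (r = 0.87, adjusted permutation p = 0.0156, Spearman rho = 0.78) and Sst with Pyy (r = 0.84, adjusted permutation p = 0.0156, rho = 0.78). Without the 2 arrays farthest from the median of the first gene, Control replicates 2 and 3, these values were 0.59 and 0.67. Gcg and Sst correlated with r = 0.83 (adjusted permutation p = 0.0388, rho = 0.43), but without Control replicates 2 and 3 r was 0.05, so that relation rested on these arrays. The beta cell pair Ins2 and Iapp had r = 0.77 (adjusted permutation p = 0.0388, rho = 0.75) and 0.65 without Control replicates 2 and 5. Gcg with Iapp (r = 0.82, rho = 0.72) and Pyy with Iapp (r = 0.75, rho = 0.61) were the remaining pairs, with adjusted permutation p-values of 0.0212 and 0.0456, and gave r = 0.60 and 0.47 without their 2 farthest arrays.

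No pair passed by Spearman's rho (8 of 21 at an unadjusted permutation p of 0.05, lowest adjusted p 0.0748). Nor did any pass by Pearson's r after the group means had been removed, when r ranged from -0.16 to 0.81, or after quantile normalization again. Ghrl and Ppy took part in none of the 6 pairs. The values of 1 array share its RNA preparation and its hybridisation, and the correlations hold that common part.

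The genes outside the family whose levels followed each hormone most closely over the 10 arrays included islet genes for Gcg and Pyy. Irx2, a homeodomain factor of alpha cells, was among the 5 closest to Gcg (r = 0.95), behind Eef1a2 (r = 0.97), Cyhr1 (r = 0.96) and Tmc2 (r = 0.96), with Fabp12 next. For Pyy the 5 were Syngr3, Scg3, Celf3, Scg5 and Myt1l (r = 0.94 to 0.95), where Scg3 and Scg5 encode proteins of dense-core granules, Scg5 being the chaperone 7B2 of the convertase PC2. For Iapp the 5 were Gpx4, Eif4ebp2, Ipmk, Tmem238 and Slc29a1 (r = 0.94 to 0.96). For Ghrl they were Nav1, Dbpht2, Rere, Sgo2b and Dync1h1 (r = 0.91 to 0.95). For Ins2 they were Olfr199 (r = 0.95), an odorant receptor gene at a level of 3.71, and Rprl2, Nxt1, Tspan2 and Eya2. For Sst they were Tsen54, Pex5, Stpg4, Vmn1r183 and Tpst2, and for Ppy Luc7l2, Tnnt3, Olfr251, Defb21 and Vpreb1. These genes were picked as the highest of 19938 values of r over 10 arrays each, so the values are given as a description.

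Genes that process, store or act with the hormones were then counted. Of 15 measured genes of prohormone processing and granule content 1 fell and none rose past limma's adjusted p of 0.05, where 2.44% of all genes were called and 0.366% were called lower. It was Ptprn2, a receptor-like phosphatase protein of the dense-core granule, with 9.001, 9.39, 9.58, 9.57 and 9.79 in DKO replicates 1 to 5, against 10.15, 10.30, 10.43, 10.09 and 10.28 in Control replicates 1 to 5. Every DKO array lay below every Control array, as in 1.28% of all genes, and the log2 difference was -0.79 ± 0.13 (SE, limma adjusted p = 0.00971). The call ended without the pair of arrays Control replicate 2 and DKO replicate 4 (difference -0.80, limma adjusted p = 0.0630). Chga, the granule protein chromogranin A, was at 11.72 to 11.85 in DKO and 11.87 to 12.33 in Control, likewise without overlap (1.28% of all genes). It did not pass (difference -0.31 ± 0.09 SE, limma adjusted p = 0.134). Scg5 differed by -0.42 (adjusted p = 0.173) and the glutaminyl cyclase gene Qpct by 0.29 (0.140). Pcsk1, the convertase PC1/3 that cuts proinsulin, differed by -0.30 (limma adjusted p = 0.329), and Cpe, which trims the cut peptides, by 0.02 (0.942). At an unadjusted p of 0.05, 7 of the 15 granule genes passed, 6 as lower and 1 as higher in DKO. Over all genes the shares were 14.8% in either direction and 5.66% as lower. The median over the list was -0.21, with 13 of 15 negative (52.4% of all genes).

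Among 20 islet transcription factors none passed limma's adjusted p of 0.05, while 7 passed an unadjusted p of 0.05, 5 as lower and 2 as higher in DKO (over all genes 14.8%, and 5.66% as lower). Nkx2-2, needed to form beta cells, differed by -0.35 ± 0.09 (SE, adjusted p = 0.0605), with 8.42 to 8.84 in DKO and 8.94 to 9.19 in Control. Insm1, a zinc finger factor of endocrine progenitors, differed by -0.32 (adjusted p = 0.0881) and Mafa, an activator of the insulin genes, by -0.26 (0.157). Glis3, a zinc finger factor of beta and duct cells, had the opposite sign, 0.48 ± 0.12 (SE, adjusted p = 0.0573), with 9.64 to 10.32 in DKO and 9.32 to 9.63 in Control. Hhex, a delta cell marker, was the other factor higher at an unadjusted p of 0.05 (0.29, limma adjusted p = 0.225). Without DKO replicate 2 Glis3 passed (0.58, limma adjusted p = 0.00972), as did Insm1 without Control replicate 4 (-0.39, 0.0265). Nkx2-2 passed after array medians were subtracted (-0.39, limma adjusted p = 0.0444) or with quantile normalization again (-0.38, 0.0381). The median was -0.17, with 17 of 20 negative (52.4% of all genes). Of the 17 measured genes of beta cell glucose sensing and secretion none passed, and 4 did at an unadjusted p of 0.05, all lower in DKO (over all genes 14.8% in either direction and 5.66% as lower). They were the vesicle GTPase gene Rab3a (-0.27, adjusted p = 0.0741), the calcium channel gene Cacna1d (-0.27, 0.252), the peptide gene Ucn3 of mature beta cells (-0.28, 0.263) and the incretin receptor gene Glp1r (-0.30, 0.279). The median of that list was -0.11, with 15 of 17 negative, beside the same 52.4%.

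Receptors of the hormones gave no call among 17 genes, with 2 at an unadjusted p of 0.05, both lower in DKO. Over all genes 14.8% passed in either direction and 5.66% as lower. Sstr2, a somatostatin receptor, was at 7.76, 7.69, 7.94, 7.53 and 8.16 in DKO replicates 1 to 5, against 8.04, 8.61, 8.82, 8.73 and 8.27 in Control replicates 1 to 5. DKO replicate 5 lay above Control replicate 1, and the log2 difference was -0.68 ± 0.16 (SE, limma adjusted p = 0.0552). Without Control replicate 1 it was -0.79 and passed (limma adjusted p = 0.0249). Sstr4 differed by -0.22 (limma adjusted p = 0.267), Ramp3, a partner of the amylin receptor, by 0.19 (0.376) and the ghrelin receptor gene Ghsr by -0.13 (0.412). The median over the receptors was -0.03, with 12 of 17 negative (52.4% of all genes).

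**Figure D4:**
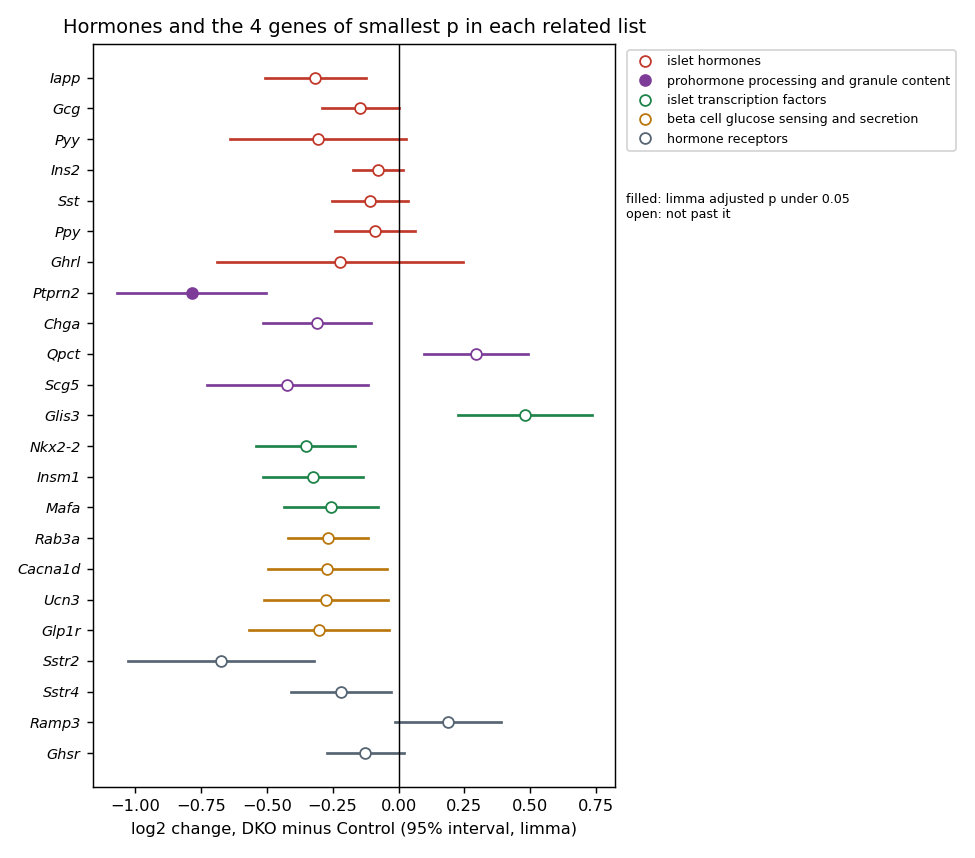
Log2 difference between DKO and Control with its 95% interval from limma, for the 7 hormones and for the 4 genes with the smallest p in each of 4 related lists. Filled points passed an adjusted p of 0.05, which of these 23 genes Ptprn2 alone did; the hormones lie between -0.32 and -0.08.

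The mean levels of acinar and of duct marker genes also differed between the groups in the same arrays. Cell numbers were not measured. All 20 acinar genes had a lower mean in DKO (median -0.11), as did 52.4% of all genes. Of the 20, 1 was called lower, where 0.366% of all genes were. Every DKO array had a lower acinar mean than any Control array. The mean of 12 duct genes was 10.17 to 10.38 in DKO and 9.91 to 10.08 in Control, with 4 genes called higher, Cldn4 (1.37), Krt7 (1.22), Krt19 (0.41) and Krt8 (0.30). Over all 19938 genes 414 were called higher. The other duct genes went both ways, and 4 of the 12 had a lower mean in DKO: Car2 (-0.34), the duct cell transcription factor gene Sox9 (-0.26, limma adjusted p = 0.149, without overlap between the groups), Onecut1 (-0.10) and Muc1 (-0.03). All DKO arrays lay below all Control arrays in 1.28% of all genes. Fat cell markers ranged more widely in DKO (mean of 7 genes 7.46 to 9.83) than in Control (8.49 to 8.95). The mean over 10 genes of a gut hormone list was 5.75 to 5.97 in DKO and 5.85 to 6.01 in Control. That list also holds the neuropeptide genes Npy, Tac1 and Vip and the enzyme gene Tph1, so its mean is not specific to enteroendocrine cells. The part of these shifts in the hormone values was not tested.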

How the data were processed

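Mouse pancreas RNA of 10 samples was read on 1 Affymetrix Mouse Gene 1.0 ST array each. The deposited table holds log2 intensities, 1 per transcript cluster and sample, made with Affymetrix Expression Console per the submitters' processing notes. The version of that program, and how it corrected background, summarized probes and normalized arrays, is not given in the sources used here. Values were used as deposited. Of 35556 clusters 21789 had 1 gene symbol in the platform annotation, 1621 several and 12146 none here. Clusters with 1 symbol were kept, the brightest over all 10 arrays for each of 999 genes with several clusters. A RefSeq table of GRCm38.p6 matched 21698 of these and supplied current symbols.

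DKO was set against Control by a two-sided limma test without covariates (version 3.58.1, lmFit then eBayes, R 4.3.3) over all 19938 genes with Benjamini-Hochberg adjustment. SEs and 95% intervals come from that fit, and adjusted p-values of single genes are limma's. The fit was tested on simulated data. Differences to Ins2 used exact permutation tests, and correlations 100000 permutations, both run in Python 3.11.15. SciPy 1.17.1 gave the ranks and the Benjamini-Hochberg adjustment of these tests. The planned difference of Ins1 to Ins2 and the pairs of Ins1 were dropped, as Ins1 had no cluster. Named list genes are the 4 with the smallest p in each list, and the 5 with the highest r for each hormone. Stk4 was planned as a check of the deleted genes. Others (Mboat4, Pcsk1, Cpe, Hhex, Xist and the duct genes) were named after their values were seen. Members and lists were chosen with earlier results of these data known.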

Additional observations from a re-analysis of the deposited data

Results flagged for a closer look

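In 46 groups of 5 arrays (23 named genes in each genotype) 6 held an array far from the other 4 by Dixon's criterion, which chance meets in about 1 group in 20. Among the hormones this was Sst, at 12.00 in DKO replicate 4 against 11.91 to 11.93 in the other DKO arrays. Among the related genes, Scg5 was low in DKO replicate 2 (8.41, others 8.82 to 8.98), the array that was also lowest for Gcg, Pyy and Iapp. Nkx2-2 was low in DKO replicate 1 (8.42, others 8.78 to 8.84), and Ucn3 in DKO replicate 3 (7.73, others 8.13 to 8.28). In Control replicate 4 both Glis3 (9.32, others 9.59 to 9.63) and Insm1 (8.42, others 8.68 to 8.77) were low.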

How the results depend on the processing

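Each of the 7 hormone differences kept its negative sign in all 23 alternative fits, and none passed an adjusted p of 0.05 (limma; lowest 0.0572, Iapp with array weights). At a threshold of 0.10, 1 hormone (Iapp) passed. Leaving out 1 array gave -0.36 to -0.25 for Iapp (adjusted p 0.0697 to 0.239) and -0.37 to -0.07 for Ghrl. The count over all genes (487, 73 lower) was 151 (5 lower) without Control replicate 2 and DKO replicate 4, 298 (34) with unmoderated variance, 163 (9) and 826 (174) at thresholds of 0.01 and 0.10. With the level of Xist, an RNA of female cells, as a covariate it was 360 (46 lower). Leaving out 1 array gave 260 to 433 genes (28 to 64 lower).

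For no DKO array was the same-numbered Control array the closest by deviations from the group means (correlations of same-numbered arrays -0.27 to 0.29). Such correlations cannot decide whether the replicate numbers pair the samples. With the replicate block 178 genes (16 lower) and no hormone were called, and Iapp kept -0.32 (adjusted p = 0.292).

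Counts in related lists were near the threshold. Transcription factors called were 1 after median subtraction, quantile normalization or the 25% dim filter, 2 with the 50% filter, 3 with array weights or at 0.10, and 0 to 2 on leaving out 1 array. Receptors were 1 after median subtraction, either dim filter or at 0.10, and 0 to 1 on leaving out 1 array. Beta cell genes were 1 with array weights or at 0.10, and granule genes 0 without Control replicate 2 and DKO replicate 4. Iapp relative to Ins2 was -0.28 to -0.18 on leaving out 1 array. Relative to Ins2, Ppy ranged from -0.0622 to 0.0369 and Sst from -0.0588 to 0.0239, turning positive for Sst without Control replicate 3 (0.0239) and for Ppy without Control replicate 3 (0.0129) or 4 (0.000405) or DKO replicate 1 (0.00642) or 5 (0.0369). Pairs of hormones called by r numbered 0 on group-centred values (4 at an unadjusted p of 0.05) and after quantile normalization (9). On group-centred values r was negative for Ins2 with Ppy (-0.16), Ppy with Iapp (-0.0407) and Iapp with Ghrl (-0.0746).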
